A study of Homo sapiens with 6 samples.

Results

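The aldehyde dehydrogenase ALDH3A1 and 9 further genes of the aldehyde dehydrogenase (ALDH) family were followed in MDA-MB-231 cells that received a miRNA precursor or a scrambled control. The members were chosen by gene name and readout: ALDH3A1 was taken because its array signal fell with both precursors, and ALDH3A2, ALDH3B1, ALDH1A1, ALDH1A3, ALDH1B1, ALDH2, ALDH7A1, ALDH9A1 and ALDH18A1 were added as relatives. They are 10 of the 21743 genes that the arrays could be matched to by RefSeq transcript. Every probe whose transcript belonged to a member was taken, which gave 17 probes, between 1 and 3 per gene. The values of ALDH3A1 against the scrambled control therefore describe what it was selected on and carry no test here.

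MDA-MB-231 is an established line of human breast cancer cells with a mesenchymal appearance and without estrogen or progesterone receptors. Cells were transfected with the precursor of hsa-miR-205-5p, the precursor of hsa-miR-214-3p or a scrambled precursor, and total RNA was collected 72 h later. Each of the 3 groups had 2 arrays. The labels do not say whether both came from separate cultures, so the p-values measure only the spread between these samples, which may be technical.

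Aldehyde dehydrogenases oxidize aldehydes to carboxylic acids with NAD+ or NADP+ as the acceptor of electrons. The family clears aldehydes from lipid peroxidation, alcohol and amino acid breakdown, and some members make retinoic acid from retinaldehyde. ALDH activity is used as a marker of stem-like cells in breast cancer, and ALDH1A1 and ALDH1A3 are the isoforms most often linked to that assay. ALDH3A1 is a cytosolic enzyme, abundant in the cornea, that oxidizes medium-chain and aromatic aldehydes and is inducible in many cells through the aryl hydrocarbon receptor.

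The 2 transfected miRNAs are shown because every comparison turns on them, with the seed (bases 2 to 8 from the 5′ end) in capitals. The sequences are those of RefSeq on GRCh38.p14, at chr1:209432166-209432187 on the plus strand for hsa-miR-205-5p and chr1:172138816-172138837 on the minus strand for hsa-miR-214-3p. Their seeds differ, so they belong to different seed families.
hsa-miR-205-5p: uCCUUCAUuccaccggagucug
hsa-miR-214-3p: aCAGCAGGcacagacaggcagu

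Signals are given as normalized log2 signal, which is the log2 of the background-subtracted intensity minus the 75th percentile of the same array. A value of 0 is thus the 75th percentile of that array, and levels of different probes are not comparable. Each array had 58717 spots other than controls, of which 20813 to 24759 were well above background, and the number of arrays limits the precision. Testing was limited to the 18464 of 50599 probes for which some group had both its arrays well above background. Of the 17 member probes, 14 passed, and 12 of these were well above background on all 6 arrays. Both ALDH1A1 probes and 1 of 3 ALDH7A1 probes did not pass. A call required 2-fold or more in either direction together with an adjusted p under 0.05 from limma.

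Markers of the cell line fitted its label in part. All 7 probes of VIM, CD44, CAV1, FN1 and AXL were well above background in every group, and limma called none of them in any comparison, and none passed 2-fold with an unadjusted p under 0.05 from limma or from the methods' t-test. Of these, a CAV1 probe had the largest difference between miR-205-5p and the control, −0.66 on the log2 scale (adjusted p = 0.0703), beside −0.42 (adjusted p = 0.272) for miR-214-3p. With scaling to the array median the former was −1.05 and called lower (adjusted p = 0.0301). No probe of ESR1 or PGR was well above background on any array. CDH1 and EPCAM, which are epithelial and were listed as absent or low, were well above background in all groups and higher with miR-205-5p, by 1.96 and 2.40 on the log2 scale. With normexp, an alternative background correction that adds an offset before the log is taken, CDH1 was 0.76 and not called, and EPCAM was 1.59. For miR-214-3p their log2 fold changes were −0.18 and 0.07 (adjusted p = 0.601 and 0.891). Their part in the ALDH values was not tested. The root mean square difference over all tested probes was 0.34 between the miR-214-3p arrays, 0.51 between the miR-205-5p arrays and 0.67 between the scrambled control arrays. Scrambled replicate 2 lay nearer to the miR-214-3p arrays, at 0.58 and 0.63, than to the other control array.

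ALDH3A1, which was selected for its fall with both precursors, moved farthest of the members against the control, so that rank is a description. Its brighter probe, A_33_P3238433, read −0.45 and −0.48 (normalized log2 signal) on the miR-205-5p arrays, 0.94 and 1.00 on the miR-214-3p arrays and 2.73 and 2.63 on the control arrays. The groups did not overlap, and the miR-214-3p arrays lay between the others. The group means were −0.46 ± 0.02, 0.97 ± 0.04 and 2.68 ± 0.07 (SD, n = 2 each), so the signal was 8.86-fold lower with miR-205-5p and 3.28-fold lower with miR-214-3p than in the control. With normexp background correction, the log2 fold changes were −2.03 and −1.37 in place of −3.15 and −1.71. In cells measured in bulk, fewer cells with a transcript and less of it per cell cannot be told apart.

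The other ALDH3A1 probe, A_23_P207213, gave the same order of groups. It read −2.36 and −1.90 with miR-205-5p, where it was not well above background, −1.12 and −1.38 with miR-214-3p, and 0.47 and 0.20 in the control. Against the control it was at least 3.87-fold lower with miR-205-5p and 3.01-fold lower with miR-214-3p. With normexp its log2 fold changes were −0.72 and −0.58, so this bound holds only for the background subtraction used here. Such a bound replaces each dim array's value by the lowest normalized signal that was well above background there, unless the probe itself read higher. The probes thus had the same direction, and the size of the change depended on the probe.

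The precursors were also set against each other, a contrast that the selection of ALDH3A1 did not fix. The brighter probe was lower with miR-205-5p than with miR-214-3p, by −1.43 on the log2 scale (standard error 0.15, limma adjusted p = 0.0045), and both miR-205-5p arrays lay below both miR-214-3p arrays. The dimmer probe, at −0.88 (standard error 0.23, adjusted p = 0.0381), did not reach 2-fold, and was at least 1.29-fold lower. It was called with quantile normalization (−1.02) and with scaling to the array median (−1.10). Its value ranged from −1.11 to −0.14 over 16 other settings, and the weakest of these is smaller than the bound. The call for the brighter probe was lost without miR-214-3p replicate 1 or 2, where the adjusted p was 0.0502 and 0.057. It was also lost with normexp background correction, where the log2 fold change was −0.67. The value of the brighter probe ranged from −1.66 to −0.67 over 17 other settings.

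**Figure D1:**
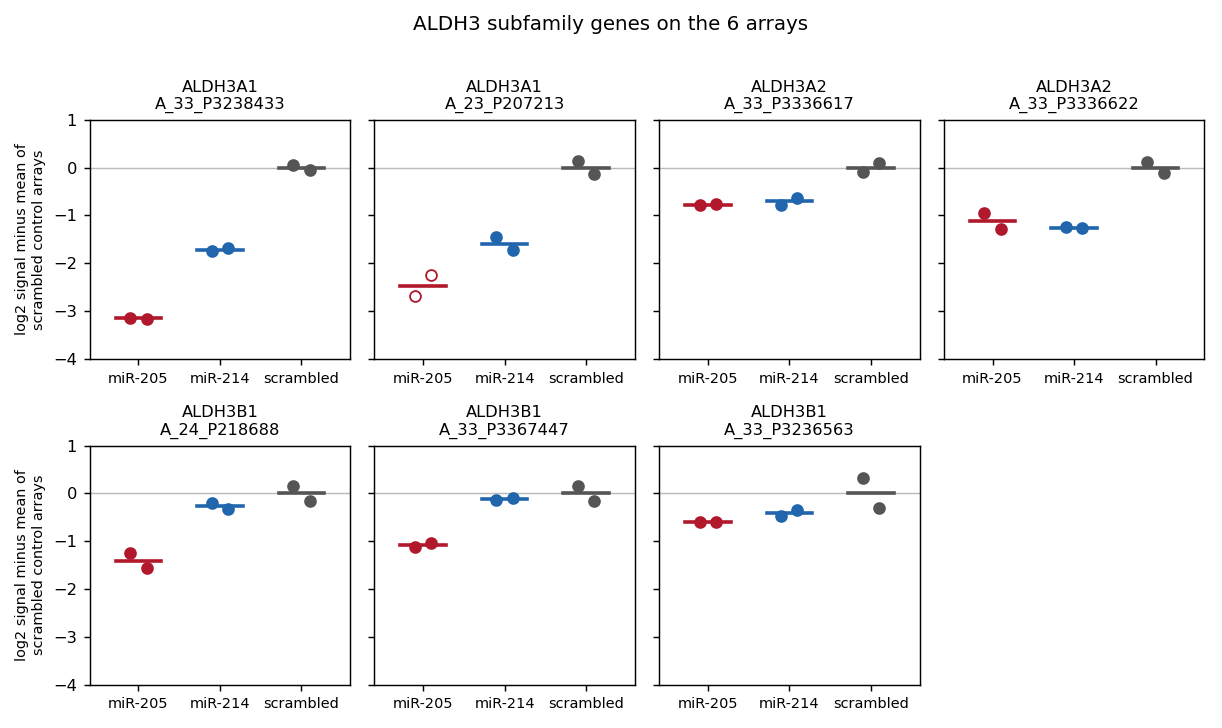
Normalized log2 signal of the 7 tested ALDH3 probes minus the mean of the scrambled control arrays (y axis, log2 units) in the 3 groups (x axis). Points are arrays, lines are group means, and open points mark groups in which fewer than 2 arrays were well above background; both ALDH3A1 probes sit lowest with miR-205-5p, and both ALDH3A2 probes sit below the control by similar amounts with either precursor.

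ALDH3A2 is the fatty aldehyde dehydrogenase of the endoplasmic reticulum, which oxidizes long-chain aldehydes from sphingolipid and fatty alcohol breakdown, and its loss causes Sjögren-Larsson syndrome. Its probe A_33_P3336622 read 3.56 and 3.24 with miR-205-5p, 3.27 and 3.26 with miR-214-3p, and 4.63 and 4.40 in the control. All 4 precursor arrays lay below both control arrays. The fall passed the test with each precursor: the log2 fold change was −1.12 (standard error 0.19, adjusted p = 0.0187) with miR-205-5p and −1.25 (standard error 0.19, adjusted p = 0.0409) with miR-214-3p. The call was lost under 7 of 17 other settings for miR-205-5p, among them either miR-205-5p or either miR-214-3p array left out (adjusted p from 0.0503 to 0.0916). For miR-214-3p it was lost under 9, among them the replicate block (adjusted p = 0.0857) and each array left out other than scrambled replicate 2 (adjusted p from 0.0699 to 0.31).

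The second ALDH3A2 probe, A_33_P3336617, is of another transcript of the gene. It read 4.79 and 4.80 with miR-205-5p, 4.80 and 4.93 with miR-214-3p and 5.48 and 5.66 in the control, so again every precursor array was below both control arrays. Neither difference reached 2-fold: −0.77 on the log2 scale (adjusted p = 0.0306) with miR-205-5p and −0.71 (adjusted p = 0.0851) with miR-214-3p. For miR-205-5p it was called with normexp (−1.10) and with scaling to the array median (−1.16). Between the precursors, the difference was −0.06 (95% interval −0.47 to 0.34) for this probe and 0.14 (−0.34 to 0.61) for the first. Unlike ALDH3A1, ALDH3A2 thus had no difference between precursors that passed the test, and the intervals exclude 2-fold.

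ALDH3B1 is a membrane-bound enzyme active on medium- and long-chain aldehydes from lipid peroxidation. Its probe A_24_P218688 read 1.07 and 0.75 with miR-205-5p, 2.12 and 1.98 with miR-214-3p and 2.47 and 2.16 in the control. Both miR-205-5p arrays lay below the other 4. The fall from the control was −1.41 on the log2 scale (standard error 0.20, adjusted p = 0.0135). It was also lower with miR-205-5p than with miR-214-3p, by −1.14 on the log2 scale (standard error 0.20, adjusted p = 0.0137). With miR-214-3p the difference from the control was −0.27 (95% interval −0.77 to 0.24, adjusted p = 0.486), which is less than the gap between the control arrays.

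The other ALDH3B1 probes differed in how far they moved. A_33_P3367447 was lower with miR-205-5p, at 0.54 and 0.62 against 1.83 and 1.50 in the control, a log2 fold change of −1.09 (adjusted p = 0.0175). With miR-214-3p it read 1.53 and 1.57, which overlapped the control (log2 fold change −0.11, adjusted p = 0.749). The dimmer A_33_P3236563 did not pass in any comparison, with −0.59 (adjusted p = 0.141) for miR-205-5p and −0.40 (adjusted p = 0.381) for miR-214-3p, and its control arrays lay 0.40 and −0.23 on the normalized scale. The calls for ALDH3B1 thus rest on 2 of 3 probes. With normexp both calls against the control were lost, at −0.99 for A_24_P218688 and −0.64 for A_33_P3367447, as was the call between precursors, at −0.73.

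ALDH3A1 and ALDH3A2 are near neighbours on chromosome 17, so the genes around them were looked at after the values above were known. In the order of the RefSeq gene table of GRCh38.p14, the protein-coding genes run RNF112, SLC47A1, ALDH3A2, SLC47A2, ALDH3A1, ULK2 and AKAP10. Of the 5 genes other than ALDH3A1 and ALDH3A2, none was called against the control. RNF112 had log2 fold changes of −0.49 with miR-205-5p and 0.00 with miR-214-3p (adjusted p = 0.128 and 0.995), and the tested probe of ULK2 had 0.05 and 0.21 (adjusted p = 0.92 and 0.753). SLC47A1, which encodes an organic cation exporter, had a dim probe that was well above background on both miR-214-3p arrays, 1 control array and 0 miR-205-5p arrays, and SLC47A2 was not well above background on any array. AKAP10 had −0.76 and 0.67 (adjusted p = 0.235 and 0.391), and was lower with miR-205-5p than with miR-214-3p by −1.43 (adjusted p = 0.0486). Its probe was well above background on 1 of 2 miR-205-5p arrays, and the alternatives were not followed for it singly. Around ALDH3B1 on chromosome 11, NDUFS8 and TCIRG1 had log2 fold changes of −0.10 and 0.39 with miR-205-5p, and the 4 UNC93B1 probes lay between 0.27 and 0.73, none called.

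The start regions of ALDH3A2 and ALDH3B1 are printed because both genes fell with miR-205-5p, together with that of CYP1A1, an aryl hydrocarbon receptor target described further on. The 250 bases before the second of 2 listed starts of each ALDH3 gene and before the start of CYP1A1 come from RefSeq on GRCh38.p14. They lie at chr17:19648501-19648750 on the plus strand (ALDH3A2), chr11:68010077-68010326 on the plus strand (ALDH3B1) and chr15:74725529-74725778 on the minus strand (CYP1A1). Capitals mark GCGTG, the core of the xenobiotic response element, on either strand.
ALDH3A2: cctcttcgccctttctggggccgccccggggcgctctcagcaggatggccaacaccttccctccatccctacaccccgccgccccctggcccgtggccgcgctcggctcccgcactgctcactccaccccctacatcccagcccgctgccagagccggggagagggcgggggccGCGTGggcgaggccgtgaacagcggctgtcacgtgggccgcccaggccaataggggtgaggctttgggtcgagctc
ALDH3B1: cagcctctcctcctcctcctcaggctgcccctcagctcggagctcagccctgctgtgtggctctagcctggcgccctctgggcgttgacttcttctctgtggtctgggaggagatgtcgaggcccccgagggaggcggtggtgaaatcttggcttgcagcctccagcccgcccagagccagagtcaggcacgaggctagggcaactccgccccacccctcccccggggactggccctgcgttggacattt
CYP1A1: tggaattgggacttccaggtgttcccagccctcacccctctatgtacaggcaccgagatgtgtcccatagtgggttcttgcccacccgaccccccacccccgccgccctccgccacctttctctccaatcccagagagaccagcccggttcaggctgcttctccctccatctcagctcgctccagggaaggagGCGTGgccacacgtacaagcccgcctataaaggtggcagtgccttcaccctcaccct

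The motif search was chosen after the values were seen and covered both strands of windows from 250 bases before to 50 after each start. GCGTG was in 36.5% of the 35116 windows of that length. Of the 8 members with an entry, ALDH3A2 and ALDH1A3 held it, with matches beginning 76 bases before the second ALDH3A2 start and at position 42 after it, none in the window of the first ALDH3A2 start, and matches 197 and 43 bases before the ALDH1A3 start. In the CYP1A1 window it began 57 bases before the start. TGACNNNGC, the core of the antioxidant response element, was in 13.3% of all windows and in 0 of the 8 members, and since it ends in the letters that GCGTG begins with, matches of both can overlap. ALDH3A1 and ALDH2 had no entry. A match is a run of letters and says nothing on binding.

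ALDH1A3, which makes retinoic acid from retinaldehyde, moved the other way from the ALDH3 genes. Its probe read 1.70 and 1.74 with miR-205-5p, a mean of 1.30 ± 0.29 (SD, n = 2) with miR-214-3p and 0.65 and 0.27 in the control, and all 4 precursor arrays lay above both control arrays. The rise with miR-205-5p passed the test, at 1.26 on the log2 scale (standard error 0.22, adjusted p = 0.0208). With miR-214-3p the log2 fold change was 0.84 (95% interval 0.29 to 1.40, adjusted p = 0.11), and between precursors it was 0.42 (−0.14 to 0.97, adjusted p = 0.197). The ALDH1A3 call was lost under 9 of 17 other settings. Among them were normexp background correction (log2 fold change 0.61, adjusted p = 0.0668) and scaling to the median (0.87, adjusted p = 0.0629). No filter on dim probes (adjusted p = 0.0816) and the fit on only the arrays compared (adjusted p = 0.0543) also lost it.

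Neither of the 2 probes for ALDH1A1, the cytosolic retinaldehyde dehydrogenase, was well above background on any array, so no fold change is given. ALDH1B1, a mitochondrial enzyme of acetaldehyde and retinaldehyde oxidation, read 2.83 and 3.06 with miR-205-5p, 2.26 and 2.43 with miR-214-3p and 2.19 and 2.63 in the control. Its differences from the control were 0.54 (adjusted p = 0.137) and −0.06 (adjusted p = 0.891), and the third, between precursors, was 0.60 (adjusted p = 0.0859). ALDH2, the main mitochondrial acetaldehyde dehydrogenase, stayed within a narrow range of −0.71 to −0.42 over the 6 arrays and was well above background on 1 of 2 miR-205-5p arrays. Its 95% intervals against the control were −0.52 to 0.26 for miR-205-5p and −0.34 to 0.44 for miR-214-3p, so changes of 2-fold lie outside them.

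ALDH7A1, which oxidizes the semialdehyde of lysine breakdown, had probes that differed from each other. The brightest, A_23_P70231, read 4.06 to 4.66 over all arrays, and its log2 fold changes were 0.29 and 0.39 (adjusted p = 0.298 and 0.275). A_33_P3330498 had −0.91 and 0.10 (adjusted p = 0.126 and 0.889), with control arrays at −0.18 and 0.53. A_33_P3330503 was well above background on a single array, miR-205-5p replicate 2, at 2.04 against −3.88 on the other miR-205-5p array, and was not tested.

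ALDH9A1, which makes the carnitine precursor from its aldehyde, read −0.14 and 0.45 with miR-205-5p, −0.69 and −0.23 with miR-214-3p and −0.93 and −0.64 in the control. Its log2 fold change with miR-205-5p was 0.94 (adjusted p = 0.073) and did not pass. ALDH18A1, the first enzyme of proline synthesis from glutamate and not an aldehyde-oxidizing enzyme, read 3.42 and 3.48, 3.98 and 4.04, and 2.73 and 3.60 in the same order. The control arrays were 0.87 apart, and the log2 fold changes were 0.29 and 0.84 (adjusted p = 0.521 and 0.187). Without scrambled replicate 2 the value for miR-214-3p was 1.28 and was called (adjusted p = 0.0238).

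**Figure D2:**
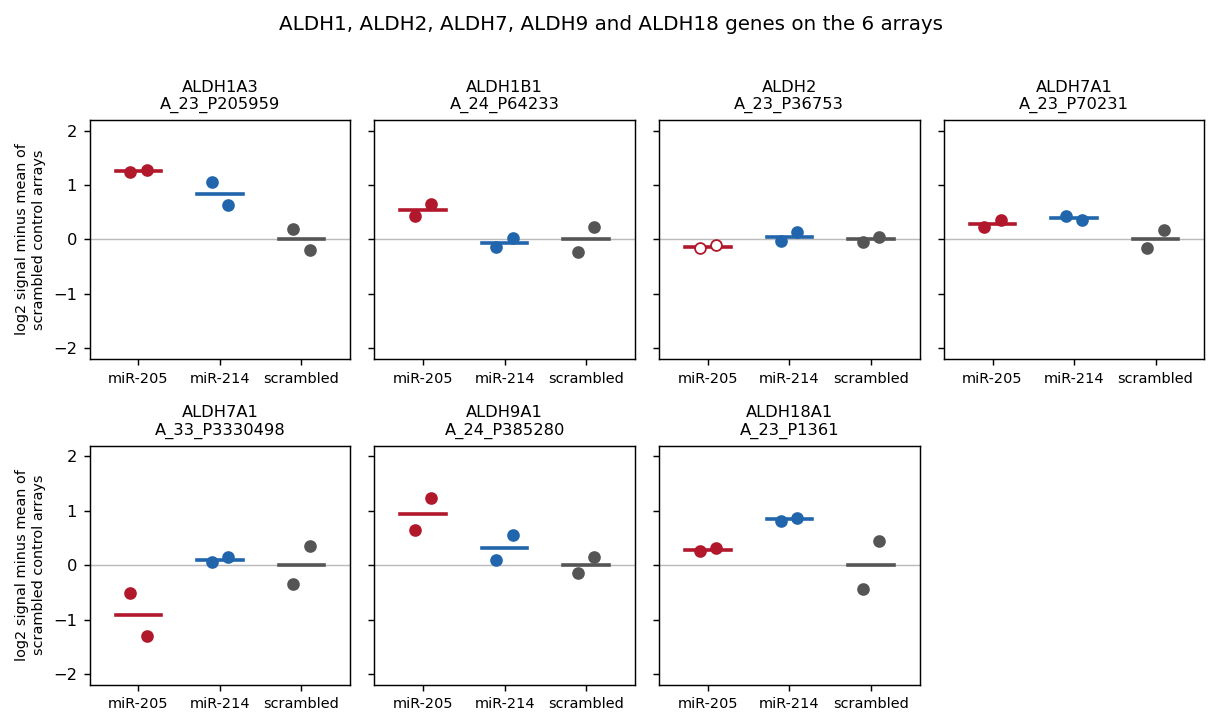
Normalized log2 signal of the 7 tested member probes outside the ALDH3 subfamily, minus the mean of the scrambled control arrays (y axis, log2 units), in the 3 groups (x axis). Points are arrays, lines are group means, and open points mark a group in which fewer than 2 arrays were well above background; ALDH1A3 lies above the control on all 4 precursor arrays, and the control arrays of ALDH18A1 lie 0.87 apart.

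Counted over the 12 tested probes of members other than ALDH3A1, miR-205-5p against the control gave 3 called lower, 2 of ALDH3B1 and 1 of ALDH3A2, and 1 called higher, that of ALDH1A3. Over all 18464 tested probes, 8.05% were called lower and 4.14% higher. The median log2 fold change was −0.36 over the 12 probes and 0.05 over all tested probes. With miR-214-3p, 1 of the 12 was called lower, the ALDH3A2 probe A_33_P3336622, and 0 higher, beside 1.68% and 0.991% of all tested probes. The median was −0.01 over the 12 probes and −0.01 over all. For miR-205-5p against miR-214-3p, 1 of the 12 was called lower, the ALDH3B1 probe A_24_P218688, and 0 higher, beside 11.6% and 8.37% of all tested probes, with medians of −0.14 and 0.09. Both counts of 0 were also 0 at an unadjusted limma p under 0.05 with the 2-fold limit and by the methods' t-test. The first 2 comparisons share the control arrays.

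The counts depend on single arrays and on the background correction. With normexp the 3 lower calls for miR-205-5p became 2, both of ALDH3A2, and with the array median they became 4, which include both ALDH3A2 probes. For miR-205-5p the 3 lower calls became 1 without miR-205-5p replicate 1, 2 without scrambled replicate 1, 0 without miR-205-5p replicate 2 and 0 without either miR-214-3p array, which add to the estimate of spread. The higher call was lost without either miR-205-5p array and without either miR-214-3p array. For miR-214-3p the lower call was lost without any 1 array other than scrambled replicate 2, and the higher count became 1 without scrambled replicate 2. The ALDH3B1 call between precursors was lost without miR-205-5p replicate 2 or either miR-214-3p array. Over all tested probes, no call for miR-205-5p against the control was made without miR-205-5p replicate 2, and none for miR-214-3p against the control without any 1 array other than scrambled replicate 2. Each call of those comparisons, here and in the gene lists, therefore rests on these arrays. With the replicate number as a block, the lower count for miR-214-3p was 0, as were the counts over all probes.

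Scaling each array to its median in place of the 75th percentile moved the median log2 fold change of all tested probes from 0.05 to −0.34 for miR-205-5p, from −0.01 to −0.17 for miR-214-3p and from 0.09 to −0.13 between precursors. The lower share of all calls moved from 66.0% to 91.3%, from 63.0% to 84.7% and from 58.0% to 76.3% in the same order, and with normexp to 85.0%, 84.4% and 65.3%. The ALDH3A1 and ALDH3A2 values against the control and the ALDH3B1 values with miR-205-5p were below 0, and the ALDH1A3 values above 0, under every one of the 17 other settings that gave a fold change for the probe. Settings that alter only the test or the set of probes leave the fold change as it is, so they could not change a sign. The same holds where an array of the group not compared was left out. For ALDH3A1 against the control, the sign was also what it was selected on. The signs of ALDH18A1 and of the brightest ALDH7A1 probe with miR-205-5p changed under 2 settings each.

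**Figure D3:**
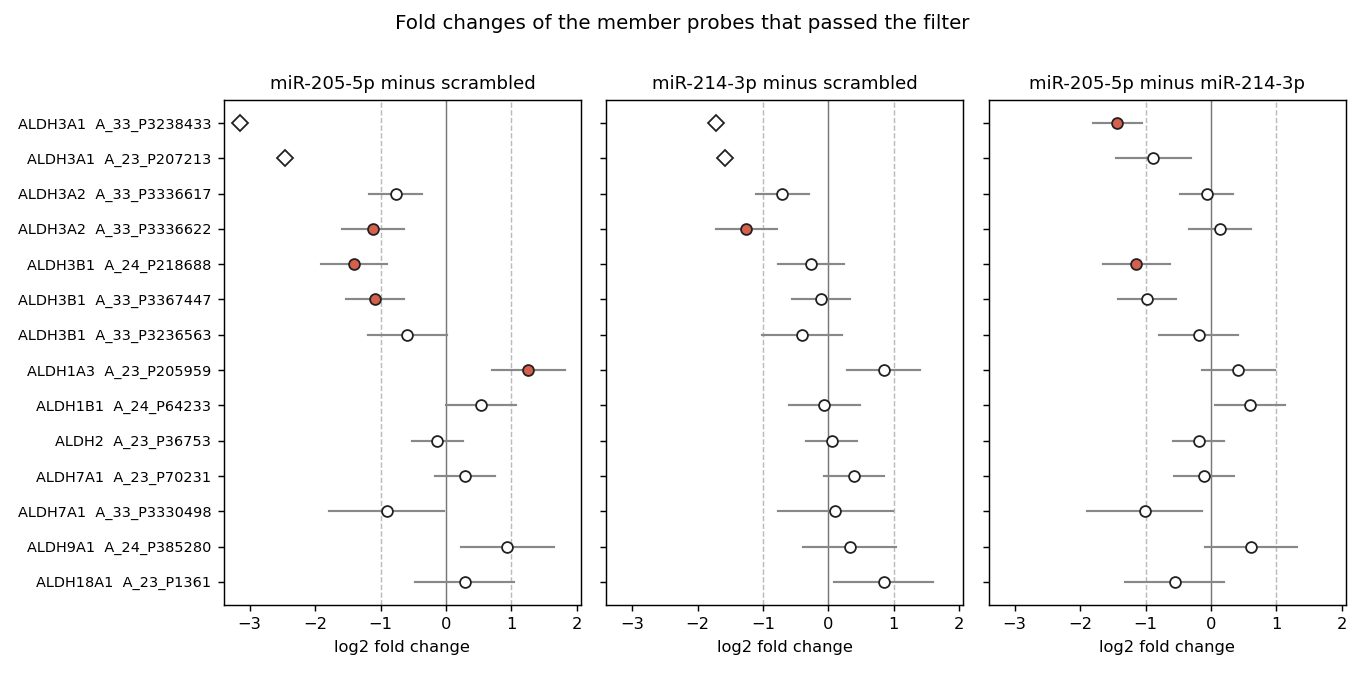
Log2 fold changes (x axis) of the 14 tested member probes (y axis) in the 3 comparisons. Lines are 95% intervals from limma, filled circles are called at an adjusted p under 0.05 and 2-fold (dashed lines), and diamonds show ALDH3A1 against the control without an interval, since it was selected on these values; the ALDH3B1 probe A_24_P218688 lies near −1.41 and −1.14 where miR-205-5p is compared and near −0.27 for miR-214-3p against the control.

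Of 9 other ALDH genes, 8 had a probe and 4 a tested one. ALDH4A1, the mitochondrial enzyme that ends proline breakdown, had a probe that was higher with miR-205-5p, A_32_P192970. It read 1.11 and 1.51 with miR-205-5p, 0.23 and 0.44 with miR-214-3p and −0.11 and −0.65 in the control. All 4 precursor arrays lay above the control arrays, and the rise with miR-205-5p was 1.69 on the log2 scale (standard error 0.26, adjusted p = 0.0148). The call was lost under 7 of 17 other settings. Among them were the fit on only the arrays compared (adjusted p = 0.0513) and miR-205-5p replicate 2 or either miR-214-3p array left out. With normexp the rise was 0.49 and not called (adjusted p = 0.124). The other ALDH4A1 probe, A_23_P170337, had 0.59 (adjusted p = 0.0757) and was not called.

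ALDH1L1, a folate enzyme that oxidizes formyltetrahydrofolate, was well above background only with miR-214-3p. It read −0.72 and −1.03 there, −2.66 and −2.79 with miR-205-5p and −2.63 and −2.50 in the control. As it passed the filter through miR-214-3p alone, it had to differ, and its values are given as a description. It was at least 2.82-fold higher with miR-214-3p than in the control and at least 1.67-fold higher than with miR-205-5p. With normexp the log2 fold changes were 0.46 for miR-214-3p against the control and −0.29 for miR-205-5p against miR-214-3p, which are smaller than these bounds. ALDH6A1, of valine breakdown, and ALDH16A1 had log2 fold changes of 0.21 and 0.21 with miR-205-5p and −0.03 and −0.24 with miR-214-3p, none called (adjusted p from 0.505 to 0.958). ALDH1A2, ALDH1L2, ALDH5A1 and ALDH8A1 were not well above background on any array, and no probe was matched to ALDH3B2.

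Genes of related pathways were taken from lists by known role. Among aldehyde reductases and alcohol dehydrogenases, which reduce aldehydes to alcohols or form them from alcohols, 17 of 30 probes were tested. They include 2 of AOX1, an oxidase that turns aldehydes into acids, neither of which was called against the control. With miR-205-5p, 6 were called lower and 0 higher, beside 8.05% and 4.14% of all tested probes, and the median log2 fold change was −0.72 beside 0.05. With miR-214-3p none was called, beside 1.68% lower and 0.991% higher of all, and the median was −0.44 beside −0.01. At an unadjusted p and 2-fold, 7 were lower with miR-205-5p and 1 with miR-214-3p, and 0 were higher with either. The methods' t-test, unadjusted, gave 4, 1 and 0.

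The 6 lower genes with miR-205-5p were PTGR1, AKR1C1, AKR1A1, AKR1B1, AKR1C3 and AKR1B15. PTGR1, which reduces the double bond of unsaturated aldehydes such as 4-hydroxynonenal, read 0.19 and 0.15 with miR-205-5p, 3.14 and 2.99 with miR-214-3p and 1.88 and 3.45 in the control. The control arrays lay far apart, and the fall was −2.49 on the log2 scale (standard error 0.50, adjusted p = 0.0275). That call was lost under 7 of 17 other settings, among them either miR-205-5p array left out (adjusted p = 0.0946 and 0.112) and either miR-214-3p array left out (adjusted p = 0.0691). AKR1A1, the general aldehyde reductase, read 1.03 and 0.75, 2.99 and 2.99, and 2.57 and 3.10 in the same order, and fell by 1.95 (standard error 0.23, adjusted p = 0.00958). AKR1B1, aldose reductase, had −1.68 (standard error 0.22, adjusted p = 0.0116), and AKR1C3, which acts on steroids and prostaglandins, had −1.33 (standard error 0.17, adjusted p = 0.011). An AKR1C1 probe fell by 1.98 (adjusted p = 0.0124) while its other probe had −0.72 (adjusted p = 0.108). Between precursors, AKR1A1, AKR1B1, AKR1C1 and PTGR1 were lower and CBR1 and CBR4 higher with miR-205-5p, while for miR-214-3p against the control AKR1A1 and AKR1B1 had 0.15 and −0.17 (adjusted p = 0.743 and 0.691). With normexp the calls for AKR1B15 (−0.37) and AKR1C1 (−0.79) against the control were lost, and AKR1C1 between precursors was −0.25 and not called. With the replicate block AKR1B15 against the control (adjusted p = 0.0556) and AKR1C1 between precursors (adjusted p = 0.0548) were not called. The AKR1B15 call was lost under 10 of 17 other settings. Among them were scrambled replicate 2 (−0.92), either miR-205-5p array or either miR-214-3p array left out. Between precursors, the PTGR1 and AKR1C1 calls were lost without any 1 of the 4 arrays compared (adjusted p from 0.0546 to 0.0762 and from 0.0799 to 0.15), that of AKR1B1 without miR-214-3p replicate 1 or 2 (0.0685 and 0.0701) and that of AKR1A1 without miR-214-3p replicate 2 (0.0542). The alternatives were not followed for CBR1 and CBR4 singly. AKR1C genes are close in sequence, and how far their probes share signal was not tested.

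The aryl hydrocarbon receptor list held 9 tested probes, of which 1 was called lower and 0 higher with miR-205-5p, beside 8.05% and 4.14% of all tested probes. That 1 was CYP1A1, whose enzyme oxidizes aromatic hydrocarbons and whose gene is a standard readout of the receptor. It read −2.19 and −2.09 with miR-205-5p, where it was not well above background, −1.58 and −1.07 with miR-214-3p and −0.27 and 0.71 in the control. It was at least 3.57-fold lower with miR-205-5p (adjusted p = 0.0153), and its log2 fold change with miR-214-3p was −1.55 (adjusted p = 0.091). Other receptor targets were not called against the control: the CYP1B1 probes had 0.22 and −0.45 with miR-205-5p, and TIPARP had 0.15 (adjusted p from 0.365 to 0.656). Between precursors, 1 probe of the list was called lower with miR-205-5p and 0 higher, beside 11.6% and 8.37% of all tested probes. That probe was of another gene than CYP1A1, which had −0.81 there. The receptor gene AHR had −0.06 and −0.01 with miR-205-5p and −0.28 and −0.40 with miR-214-3p on its 2 probes, none called. The list's medians were −0.05 and −0.13, beside 0.05 and −0.01 over all tested probes. None was called with miR-214-3p, where 1 was lower at an unadjusted limma p and 0 by the methods' t-test, and 0 were higher with either precursor by each of these tests. The CYP1A1 call was lost without either miR-205-5p array (adjusted p = 0.0665 and 0.0733), with no filter on dim probes (adjusted p = 0.0623) and with normexp, where the log2 fold change was −0.64 (adjusted p = 0.063), smaller than the bound above.

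Among genes of retinoid metabolism and receptors, 15 of 31 probes were tested, and with miR-205-5p 5 probes of 4 genes were called lower and 2 higher, beside 8.05% and 4.14% of all tested probes, with a median of 0.01 beside 0.05. The lower genes were RXRB, DHRS4, RDH5 and RARG. RXRB, a retinoid X receptor, read 1.23 and 1.48 with miR-205-5p, 2.88 and 2.90 with miR-214-3p and 2.85 and 3.01 in the control, and fell by 1.58 (standard error 0.17, adjusted p = 0.00884). The 3 probes of DHRS4, which reduces retinaldehyde, had −1.23, −1.01 and −0.82, the last not called. The call for the probe at −1.23 was lost under 7 of 17 other settings. Among them were the fit on only the arrays compared (adjusted p = 0.052) and either miR-205-5p or either miR-214-3p array left out. RDH5, well above background on 1 of 2 miR-205-5p arrays, had −1.21 (adjusted p = 0.0387), and RARG, a retinoic acid receptor, had −1.08 (adjusted p = 0.0197). STRA6, the membrane receptor for the retinol carrier, was well above background only with miR-205-5p, at 0.03 and −0.61, and passed the filter through that group alone, so that it had to differ and its place among the 2 higher is a description. It was at least 4.25-fold higher than in the control, while with normexp its log2 fold change was 0.61. RDH11, a retinaldehyde reductase, was higher by 1.16 (adjusted p = 0.0335), a call lost under 12 of 17 other settings, among them each array left out (adjusted p from 0.056 to 0.141), normexp (0.44), the array median (0.77) and the replicate block (adjusted p = 0.064). With miR-214-3p, 1 probe was called lower and 0 higher, beside 1.68% and 0.991% of all tested probes, with a median of −0.26 beside −0.01. It was that of RDH14, which read −0.13 and 0.27 with miR-214-3p against 1.62 and 1.61 in the control and 1.47 and 1.78 with miR-205-5p, a fall of −1.54 from the control (adjusted p = 0.037). The call for the DHRS4 probe at −1.01 was lost under 11 of 17 other settings, among them quantile normalization (−0.96), the authors' table (−0.96) and normexp (−0.92), and that for RDH5 under 9 of 16, among them normexp (−0.33). The alternatives were not followed for RARG singly. With normexp the call for RDH14 (−0.86) was lost, as was that for RDH14 with the replicate block (adjusted p = 0.0806). The count higher with miR-214-3p was 1 at an unadjusted limma p and 0 by the methods' t-test.

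Enzymes that release aldehydes had 11 tested probes of 21, of which 1 was called lower and 2 higher with miR-205-5p, beside 8.05% and 4.14% of all tested probes. With miR-205-5p, AASS, which starts lysine breakdown ahead of ALDH7A1, was higher by 1.68 (standard error 0.26, adjusted p = 0.0154), with all 4 precursor arrays above the control arrays. SMOX, spermine oxidase, was higher by 1.04 (adjusted p = 0.0461), and AOC3, an amine oxidase, fell by 1.27 (standard error 0.17, adjusted p = 0.0121). FAR1, which makes fatty alcohols from fatty acyl-CoA, was not called against the control (adjusted p = 0.0593), with control arrays at −1.42 and 0.32. Its tested probe was not well above background with miR-205-5p, at −2.35 and −3.11, which is at least 2.10-fold lower than the control. It was called lower than with miR-214-3p, by at least 3.45-fold (adjusted p = 0.0206), and the alternatives were not followed for it singly. At an unadjusted limma p, 2 probes were lower and 2 higher with miR-205-5p, and by the methods' t-test 1 and 1. With normexp the 3 calls against the control were lost, at 0.86 for AASS, 0.52 for SMOX and −0.26 for AOC3. The SMOX call was lost under 11 of 17 other settings, among them the array median (0.65), the replicate block (adjusted p = 0.0613) and each array left out other than scrambled replicate 1. The medians were 0.35 for miR-205-5p and 0.22 for miR-214-3p, beside 0.05 and −0.01 over all tested probes. With miR-214-3p none was called by limma at an adjusted p, and none passed 2-fold with an unadjusted p under 0.05 from limma or from the methods' t-test.

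**Figure D4:**
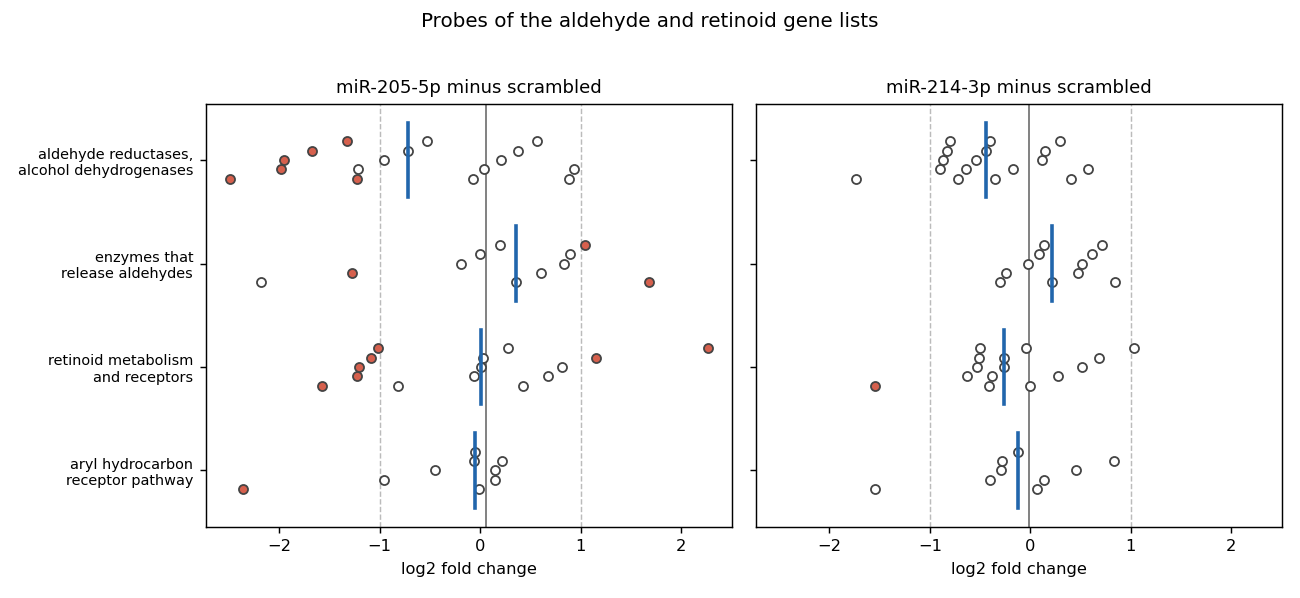
Log2 fold changes (x axis) of the tested probes of 4 gene lists (y axis) for each precursor against the scrambled control. Points are probes, filled where called, blue bars are list medians, the solid line is the median of all tested probes and dashed lines mark 2-fold; 6 probes of the top list are called lower with miR-205-5p and none with miR-214-3p.

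The probes most like ALDH3A1 over the 6 arrays were found by the root mean square difference from A_33_P3238433 after each probe was centred on its own mean. The 14875 candidates were tested probes of other named genes, well above background on both control arrays. The 5 closest were PTPRJ, a receptor tyrosine phosphatase, CIAPIN1, a protein of iron-sulfur cluster assembly, TNFSF4, a cytokine of the tumour necrosis factor family, TBXAS1, thromboxane synthase, and CCDC167. Their distances were 0.34, 0.35, 0.36, 0.39 and 0.42 (log2 units), and that of the other ALDH3A1 probe was 0.34. Each was lowest with miR-205-5p, with log2 fold changes from −2.79 to −2.28 against the control, and intermediate with miR-214-3p, from −1.43 to −0.91. They were chosen for this likeness, so their order of groups follows from the choice. TNFSF4 was not well above background with miR-205-5p, and its fall there was at least 1.81-fold. It passed the filter through the control group alone, so its fall is a description. With normexp its log2 fold change was −0.34, smaller than that bound, and −0.05 between precursors. The closest member was ALDH3B1 at 0.77, and the nearer ALDH3A2 probe was at 0.87. The distances describe these arrays and carry no test.

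**Figure D5:**
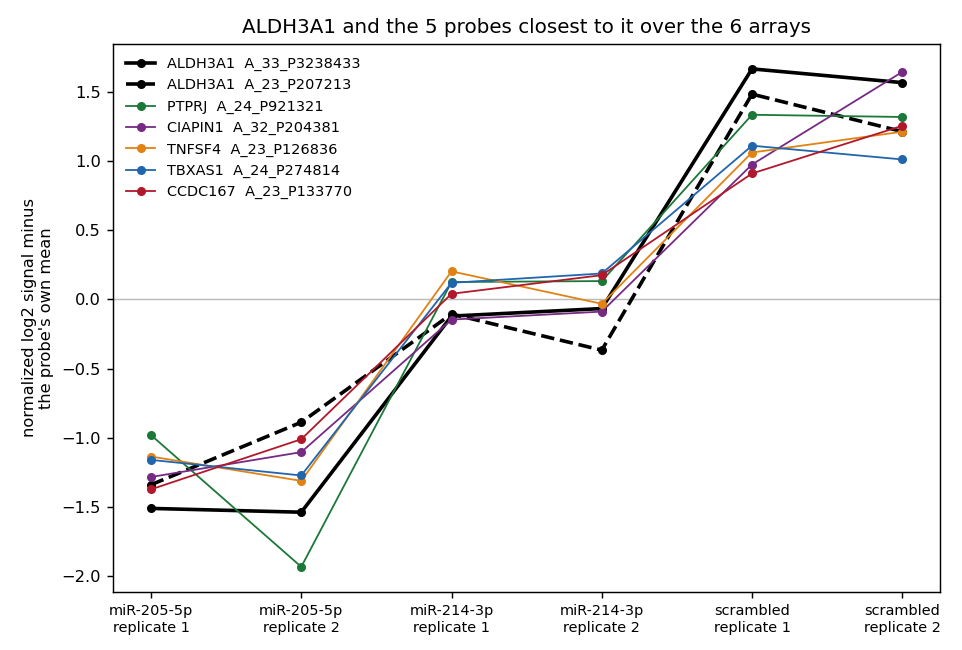
Normalized log2 signal minus the probe's own mean over the 6 arrays (y axis, log2 units) for both ALDH3A1 probes (black) and the 5 closest probes of other genes (colours), by array (x axis). Each point is 1 array, and every line is lowest on the miR-205-5p arrays and highest on the scrambled control arrays, which for the 5 follows from their choice.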

How the data were processed

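RNA from 6 samples was hybridized to one-colour Agilent SurePrint G3 Human GE arrays. The authors deposited scanner output of Agilent Feature Extraction 11.0. Its deposited processed signal is a linear intensity from which background was subtracted within each array, without normalization across arrays. Per the values, the deposited log2 table was quantile normalized, and it was used as an alternative. Control and outlier spots were left out (245 to 463 outlier spots per array), spots of a probe were averaged, log2 was taken and each array's 75th percentile subtracted. The fit used limma 3.58.1 under R 4.3.3 (lmFit and eBayes, all 6 arrays, Benjamini-Hochberg over 18464 tested probes), and figures drawn with matplotlib 3.10.9. Residual degrees of freedom were 3, with a further 2.47 from the prior. The 3 comparisons were each precursor with the control and the precursors with each other.

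The RefSeq gene table of GRCh38.p14 gave names to 30275 probes, 15385 of them tested. The array design is of another build, so that table gave names and gene order only. The members and the gene lists were chosen with earlier results of these data known. The text names all members, the other ALDH genes, the called genes of each list described (at most 6, those of largest change) or else the gene of largest change, and the 5 probes closest to ALDH3A1. AOX1, FAR1, RARG, AHR, CYP1B1, TIPARP, CBR1, CBR4 and the chromosome neighbours were named after their values were seen. The results of 1 further list were left out.

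The alternatives were quantile normalization, normexp (offset 50) on the median signal, scaling to the array median or to the 75th percentile of probes bright on every array, the authors' table, no filter, a stricter filter, a fit on the arrays compared, limma's trend with robust spread, the replicate block, unadjusted p, the methods' t-test, and no fold limit. Each array was also left out in turn, with the spread of the other groups standing in for that of the remaining array. A slide block was not run, since all arrays lay on 1 slide. The scripts were tested on simulated data.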

Additional observations from a re-analysis of the deposited data

How the results depend on the processing

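The counts of member probes other than ALDH3A1 were recomputed under 14 settings and with each array left out. For miR-205-5p against the control, the 3 lower calls became 0 with no filter on dim probes, 0 in the fit on only the arrays compared and 0 by the methods' t-test with adjusted p. They became 2 with normexp, which lost both ALDH3B1 calls and added an ALDH3A2 probe, and 4 with the array median and with no fold limit. They ranged from 0 to 3 with 1 array left out. The 1 higher call became 0 under the same 3 settings, with normexp and with the array median, and ranged from 0 to 1 with 1 array left out. For miR-214-3p against the control, the 1 lower call became 0 under the same 3 settings and with the replicate block, and ranged from 0 to 1 with 1 array left out. The 0 higher calls ranged from 0 to 1. Between precursors, the 1 lower call became 0 with normexp, with no filter and by the t-test with adjusted p. It became 2 with the array median, at an unadjusted limma p and with no limit on fold change, and ranged from 0 to 1 with 1 array left out. The 0 higher calls did not change.

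Over all tested probes, the 1486 lower and 764 higher calls for miR-205-5p became 842 and 149 with normexp, 2913 and 276 with the array median, 305 and 173 with no filter, 597 and 261 in the fit on the arrays compared, and 0 and 0 by the t-test with adjusted p. Higher calls numbered 1532 with no fold limit. Without 1 array they ranged from 0 to 2244 and from 0 to 1621. The 311 and 183 for miR-214-3p became 244 and 45 with normexp, 365 and 66 with the array median, 475 and 285 by the unadjusted t-test, 715 and 496 at an unadjusted limma p, and 0 and 0 with no filter, on the arrays compared, with the replicate block and by the t-test with adjusted p. Without 1 array they ranged from 0 to 709 and from 0 to 1059. The 2133 and 1545 between precursors became 910 and 484 with normexp, 2846 and 884 with the array median, 1121 and 724 with no filter, 1392 and 846 by the t-test with adjusted p, and 2963 and 2908 with no fold limit. Without 1 array they ranged from 270 to 2417 and from 175 to 1774. The lower share of calls for miR-205-5p moved from 66.0% to 85.0% with normexp and 91.3% with the array median. For miR-214-3p it moved from 63.0% to 84.4% and 84.7%, and to 40.1% without scrambled replicate 2, where higher calls outnumbered lower ones, and between precursors from 58.0% to 76.3% with the array median. The fits on fewer arrays have fewer residual degrees of freedom, and the unfiltered fit adjusts over 50588 probes. For the other settings the cause was not tested.

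Of 1596 fold changes of the single probes followed under 11 settings, 134 lost their call and 15 gained one. Of 882 with 1 array left out, 136 lost it and 5 gained one. None that was called changed sign. Both totals include values that were not called in the main fit and so had no call to lose. ALDH3A1 against the control was not scored for calls. The share of calls lost is therefore larger than these counts over the totals. The labels number the replicates and say no more, and the differences between replicates 1 and 2 correlated across probes at 0.109, 0.00819 and −0.0514 between pairs of groups, so the numbers were not taken to pair the arrays. With the replicate block, 0 member probes were called lower for miR-214-3p against the control, and the other 5 counts of member probes did not change. Dim probes limit what can be seen: both ALDH1A1 probes were below the level at which a change could be measured.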
